A study of Equus caballus with 24 samples.

Results

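The genes of the transforming growth factor beta (TGF-beta) superfamily were examined in pituitary and long bone epiphysis RNA of the Debao pony (DP), a short-statured breed, and the Mongolian horse (MH). Members were taken by symbol from the deposited read table: the TGF-beta, bone morphogenetic protein (BMP), growth differentiation factor (GDF), activin and inhibin genes, the activin and BMP type receptors with TGFBR3, the SMADs, the follistatin, gremlin and chordin genes, BMPER, and the latent TGF-beta binding proteins (LTBPs). This gave 59 genes of the 24232 in the table. By role they were 3 TGF-beta ligands, 9 BMP genes, 9 GDFs, 5 activin or inhibin subunits, 6 type I receptors, 4 type II receptors or co-receptors, 8 SMADs, 11 follistatin, gremlin and chordin type genes and 4 LTBPs. Not every receptor of the family was analysed here. TGFBR1, TGFBR2 and NOG were not among the members found by symbol, so statements on receptors do not cover TGFBR1 and TGFBR2. RNA had been sequenced from 12 healthy females, 3 juveniles and 3 adults of each breed, giving 24 libraries in 8 groups of 3. The groups are DPPJ and DPPA (juvenile and adult DP pituitary), DPLBJ and DPLBA (juvenile and adult DP long bone), and MHPJ, MHPA, MHLBJ and MHLBA for the same tissues and stages of MHs. Both tissues were collected at slaughter as whole pieces, so fewer cells of a type and less RNA per cell cannot be told apart in any value given here.

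Ligands of the family act as dimers that bring type II and type I receptors together. The type I receptor then phosphorylates the receptor SMADs, which join SMAD4 and enter the nucleus, while SMAD6 and SMAD7 inhibit this step. TGF-betas and activins signal mainly through SMAD2 and SMAD3, and BMPs through SMAD1, SMAD5 and SMAD9, which the file lists under its older symbol, SMAD8. Follistatin binds activins, chordin and gremlin bind BMPs, and LTBPs hold TGF-beta in the matrix in its latent form. In the growth plate BMP and TGF-beta signals act on cartilage growth and bone formation, and in the pituitary activin, inhibin and follistatin are known for setting FSH synthesis.

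Each library held between 11433209 and 27007342 reads on genes. The summed level of marker lists, in CPM (read counts scaled to library size with TMM factors), set some libraries apart from their labels before any member was compared. The anterior pituitary hormone list (5 of its 8 genes were found) summed to 29228 to 33895 CPM in DPPJ but to 0.127, 0.164 and 7.14 CPM in the 3 MHPJ libraries, where FSHB and TSHB had at most 3 reads in each library. The same list summed to 14.5 CPM in DPPA replicate 1 and 0.973 CPM in MHPA replicate 1, against 10827 to 25909 CPM in the other 4 adult libraries. The 6 astrocyte and pituicyte markers summed to 3335 to 9741 CPM in these 5 hormone-poor libraries and to 3265 CPM in DPPJ replicate 2. The other 6 libraries held 40.3 to 272 CPM. In MHPJ replicate 2 the sum was almost all S100B (38994 reads), with 581 reads of GFAP and at most 43 of each of the others. RAX went the other way, with at most 2 reads in each MHPJ library and 1 in MHPA replicate 1. It had 71 reads in DPPA replicate 1 and 10 to 330 in the libraries rich in hormone markers. MHPJ replicate 2 also held 1008 CPM of muscle markers, against at most 15.5 CPM in the other pituitary libraries. In the long bone the 6 chondrocyte markers summed to 8.79 to 12.1 CPM in MHLBJ and to 12.7, 5644 and 20039 CPM in DPLBJ, and the 5 adipocyte markers to 6286 to 8048 CPM and 1571 to 4006 CPM. In the adults the chondrocyte sums were 376 to 21748 CPM in DPLBA and 20.0 to 1595 CPM in MHLBA, and the adipocyte sums 2029 to 6148 CPM and 975 to 7097 CPM. Within MHLBA, replicate 1 held both the 1595 CPM of chondrocyte and the 975 CPM of adipocyte markers, against 6067 and 7097 CPM of adipocyte markers in replicates 2 and 3.

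**Figure D1:**
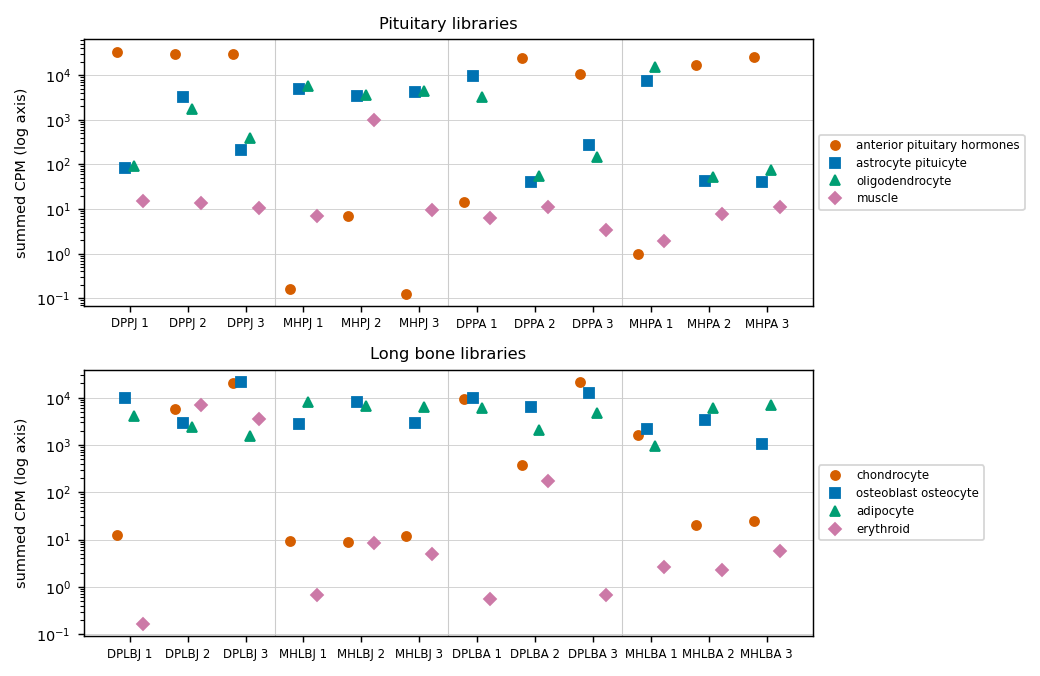
Summed level in CPM (log axis) of 4 marker lists in each pituitary library (top) and 4 in each long bone library (bottom), 1 point per list and library. The hormone markers lie at or under 14.5 CPM in all 3 MHPJ libraries, DPPA 1 and MHPA 1, and the chondrocyte markers at or under 24.7 CPM in DPLBJ 1, all 3 MHLBJ libraries, MHLBA 2 and MHLBA 3.

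Between genes, levels are compared by the authors' RPKM, which is scaled for gene length, as medians over the 12 libraries of a tissue with the lowest and highest library. In the long bone 20 members reached a median of 10 RPKM, in the pituitary 9, and 40 and 38 members reached 1 RPKM. FSTL1, a secreted follistatin-like glycoprotein, was the highest member in both tissues, at 130.3 RPKM (28.9 to 306) in the long bone and 24.6 RPKM (8.06 to 44.4) in the pituitary. Next in the long bone came TGFB1 with 52.6 RPKM (31.1 to 84.5) and TGFB2 with 51 RPKM (17.1 to 112). They were followed by LTBP3 with 43.4 RPKM (12.6 to 99), LTBP1 with 36.9 RPKM (18 to 50.6) and CHRDL1, a chordin-like BMP antagonist, with 32 RPKM (8.63 to 90.0). The ranges of these 5 overlap, so their order within the long bone does not exceed the spread between libraries. TGFB3 was lower there, at 7.32 RPKM (2.01 to 26), a range that lay wholly below that of TGFB1 and overlapped that of TGFB2. In the pituitary the receptor BMPR1B came next with 20.9 RPKM (5.75 to 109.7), followed by FSTL5 with 19.2 RPKM (0.66 to 31.1) and LTBP3 with 16.9 RPKM (11.3 to 24.6). SMAD2 had 15.9 RPKM (12.1 to 20.5) and the co-receptor TGFBR3 11.9 RPKM (0.87 to 17.1), and these ranges overlap too.

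The ligands of bone growth had unequal levels in the long bone. BMP2 had 29.5 RPKM (12.5 to 66.5), BMP4 14.7 RPKM (2.79 to 23.4), BMP6 13.2 RPKM (1.57 to 37.5) and BMP7 3.44 RPKM (1.44 to 7.02). GDF10 had 3.21 RPKM (0.57 to 26.4) and GDF5, a ligand of joint development, 0.1 RPKM (0 to 0.59), with over 3 reads in 8 of 12 libraries. The activin subunit INHBA had 14.7 RPKM (9.01 to 28.2) and INHBB 4.29 RPKM (0.55 to 12.3), while the inhibin alpha subunit INHA had 0.18 RPKM (0.09 to 0.94). In the pituitary INHBB had 2.56 RPKM (1.09 to 4.7), INHA 1.97 RPKM (0.34 to 2.84) and INHBA 0.96 RPKM (0.07 to 16.8). BMP2, BMP4, BMP6 and BMP7 lay at medians of 3.36, 4.88, 3.79 and 4.5 RPKM there, and TGFB1, TGFB2 and TGFB3 at 6.5, 6.07 and 4.34 RPKM. GDF10 and GDF5 had medians of 0.455 and 0.055 RPKM in that tissue.

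The SMADs and all receptors analysed but ACVR2B had over 3 reads in every library of both tissues. Among the receptors of the long bone, BMPR2, the BMP type II receptor, had 23.8 RPKM (14.1 to 51.2). The type I receptors ACVR1C and ACVRL1, the latter mainly endothelial, had 9.72 RPKM (2.88 to 49.5) and 8.66 RPKM (2.65 to 12.7). BMPR1A had 8.66 RPKM (2.6 to 21.3), ACVR2A 7.54 RPKM (3.2 to 13.6), TGFBR3 4.38 RPKM (2.59 to 11.4) and BMPR1B 2.76 RPKM (1.48 to 9.03). In the pituitary the medians were 9.64 RPKM for BMPR2, 9.19 for BMPR1A, 5.7 for ACVR2A, 2.86 for ACVR1C and 2.65 for ACVRL1. In the long bone the inhibitory SMADs had medians of 22.2 RPKM for SMAD6 and 22.3 RPKM for SMAD7. Those of the signalling SMADs were 24.1 RPKM for SMAD2, 19.7 for SMAD1, 9.88 for SMAD4, 7.85 for SMAD3 and 5.31 for SMAD8. In the pituitary the medians were 3.65 RPKM for SMAD6, 9.36 for SMAD7, 9.31 for SMAD4, 4.07 for SMAD3 and 8.16 for SMAD8. Of the antagonists, FST had 14.8 RPKM (2.8 to 73.4) in the long bone and 1.53 RPKM (0.7 to 4.94) in the pituitary. CHRD, BMPER and GREM1 stayed low, with medians of 1.1, 0.52 and 0.625 RPKM in the long bone and 0.94, 0.63 and 0.105 RPKM in the pituitary, against 11.5 RPKM for CHRDL1. LTBP2 and LTBP4 had medians of 11.1 and 3.46 RPKM in the long bone, and LTBP1, LTBP2 and LTBP4 of 11.9, 0.43 and 5.88 RPKM in the pituitary.

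**Figure D2:**
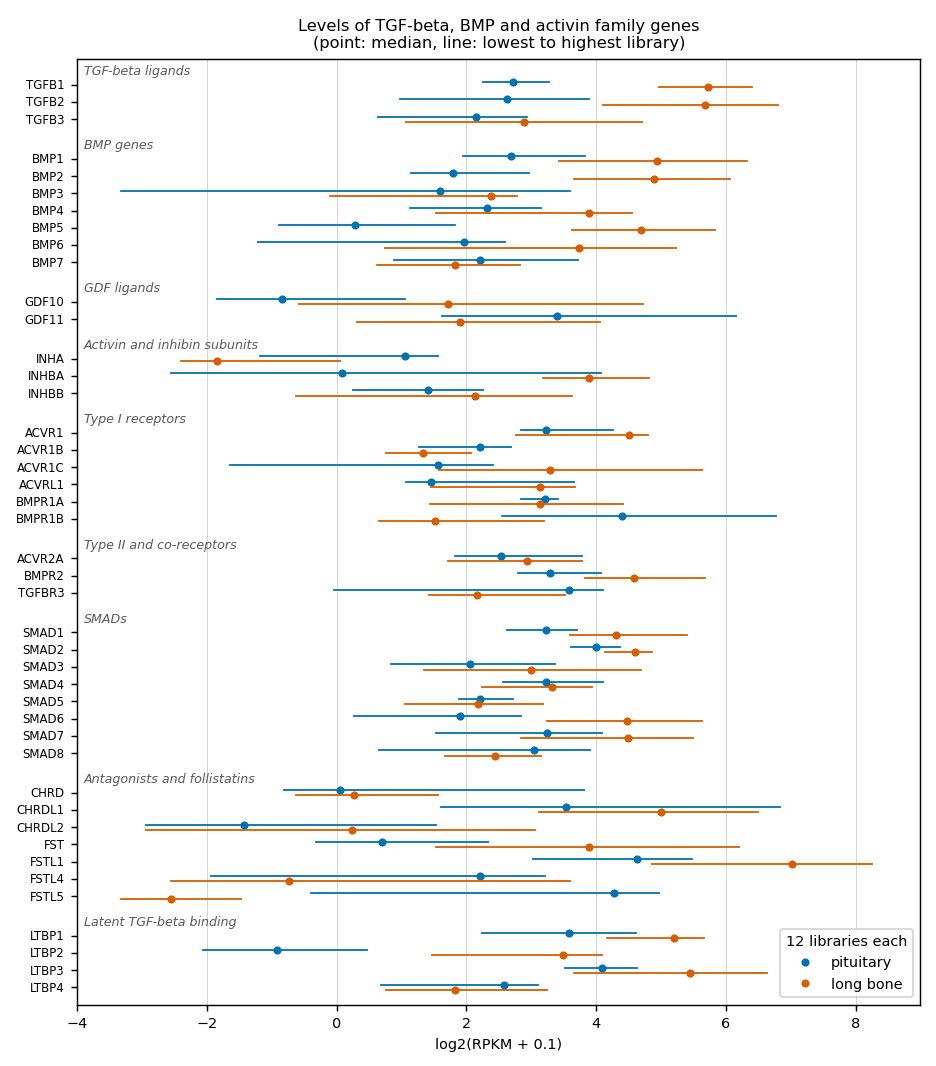
Level of the members with a median of at least 1 RPKM in a tissue, on a log2(RPKM + 0.1) scale, with the pituitary in blue and the long bone in orange, the point at the median of 12 libraries and the line from the lowest to the highest library. The lines of TGFB1, TGFB2, BMP2, BMP5, SMAD6, LTBP2 and FSTL5 do not overlap between the tissues, with FSTL5 higher in the pituitary and the other 6 higher in the long bone.

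Differences between groups were tested on the read counts with edgeR's quasi-likelihood test. A member is called a differentially expressed gene (DEG) at an unadjusted P under 0.05 with a fold change over 2, and the Benjamini-Hochberg adjusted p over all genes tested stands beside it. A member was tested only where its counts passed the low-count filter, and values per library are CPM, given for replicates 1, 2 and 3 in that order.

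Of 50 members tested between the tissues, 33 were DEGs, 25 higher in the long bone and 8 higher in the pituitary, and all 33 had an adjusted p under 0.05. Among all 16131 genes tested 38.9% were DEGs, 17.4% higher and 21.5% lower in the long bone, and the median log2 fold change was 1.17 over the members and -0.03 over all genes. All 3 TGF-beta ligands and 5 of the 7 BMP genes tested were higher in the long bone, and none of either lower. The largest rises were those of BMP5 (log2 fold change 4.55 ± 0.31 SE, edgeR adjusted p = 1.59e-09) and LTBP2 (log2 fold change 4.30 ± 0.38 SE, edgeR adjusted p = 3.17e-08). Next came INHBA (log2 fold change 3.53 ± 0.40 SE, edgeR adjusted p = 5.11e-07), BMP2 (log2 fold change 3.24 ± 0.25 SE, edgeR adjusted p = 5.31e-09) and TGFB1 (log2 fold change 3.17 ± 0.16 SE, edgeR adjusted p = 5.43e-11). BMP5 ranged from 54.2 to 166 CPM over the long bone libraries and from 1.09 to 10.5 CPM over the pituitary libraries, and TGFB1 from 56.7 to 141 CPM and from 6.67 to 15.8 CPM. Neither gene overlapped between the tissues, as was the case for 9 members and for 7.52% of all genes tested. The largest fall was that of FSTL5 (log2 fold change -7.48 ± 0.63 SE, edgeR adjusted p = 1.50e-08). BMPR1B (log2 fold change -3.09 ± 0.48 SE, edgeR adjusted p = 2.02e-05), INHA (log2 fold change -2.59 ± 0.41 SE, edgeR adjusted p = 2.71e-05) and FSTL4 (log2 fold change -2.42 ± 0.62 SE, edgeR adjusted p = 0.00247) were lower too. GDF1 had at most 2 reads in each long bone library, not told apart from 0, and a mean of 0.474 CPM in the pituitary, which makes it at least 2.53-fold lower in the long bone against the mean level of 3 reads in a library. GDF1, GDF3 and GDF9 passed the low-count filter only through the tissue where they were high. Their calls, which are in the counts of DEGs given here, are a description. FSTL5 had at most 1.38 CPM in the long bone and between 2.99 CPM (MHPA replicate 1) and 122 CPM in the pituitary. Among the other roles 3 of 6 type I receptors were higher in the long bone and 1, BMPR1B, was lower. Of 8 SMADs 4 were higher, of 4 LTBPs 3, and of 6 GDFs 2 were higher and 3 lower. These GDF counts hold GDF3 among the higher and GDF1 and GDF9 among the lower. Both tissues came from the same horses, but no label says that a replicate number stands for the same horse in both. Deviations of same-numbered pituitary and long bone libraries from their group means correlated at -0.141 to 0.261. The 33 DEGs became 32 with the replicate number as a block, which may not follow the horse. With the 5 hormone-poor pituitary libraries left out, an alternative added after seeing the data, 33 members were DEGs.

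Between the breeds, 4 follistatin and chordin type genes, 3 receptors and 3 ligands were DEGs in the juvenile long bone, and no SMAD or LTBP. FST, the activin-binding protein follistatin, was 19.0, 11.1 and 16.3 CPM in DPLBJ against 198, 71.3 and 84 CPM in MHLBJ. Its log2 fold change (DP minus MH) was -2.94 ± 0.48 SE, edgeR adjusted p = 0.136, and every DP library was below every MH library. BMPER, a secreted regulator of BMP activity, went the other way, at 6.25, 9.11 and 9.42 CPM in DPLBJ and 0.455, 0.795 and 0.298 CPM in MHLBJ, again without overlap (log2 fold change 3.99 ± 0.54 SE, edgeR adjusted p = 0.136). CHRDL1 fell from 157, 76.4 and 151 CPM in MHLBJ to 58.4, 35.1 and 25.9 CPM in DPLBJ (log2 fold change -1.68 ± 0.42 SE, edgeR adjusted p = 0.15). Altogether 10 of 43 members tested were DEGs, 2 higher and 8 lower in DPs, against 13.8% of all genes tested, of which 8.33% were higher and 5.47% lower. The median log2 fold change of the members was -0.31 and that of all genes 0.05. No member reached an adjusted p of 0.05 (the lowest in edgeR was 0.136), nor did any gene with a fold change over 2. At an unadjusted P under 0.05 there were 14 members, and DESeq2 called 11 members DEGs. Libraries of the breeds did not overlap for 13 of 43 members, against 21.9% of all genes.

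Among the receptors of the juvenile long bone, ACVR1C, which binds activins and several GDFs, was 17.5, 14.8 and 6.39 CPM in DPLBJ and 43.8, 41.1 and 107 CPM in MHLBJ (log2 fold change -2.28 ± 0.53 SE, edgeR adjusted p = 0.143). BMPR1A was 33.7, 9.47 and 18.6 CPM and 58.9, 42.7 and 56.5 CPM (log2 fold change -1.36 ± 0.45 SE, edgeR adjusted p = 0.208). BMPR2 was 73.1, 116 and 84 CPM and 155, 208 and 226 CPM (log2 fold change -1.08 ± 0.29 SE, edgeR adjusted p = 0.153). All 3 receptors were lower in every DP library than in any MH library, and the other 6 receptors and co-receptors tested were not DEGs. Of the ligands, TGFB2 fell from 126, 243 and 231 CPM in MHLBJ to 88, 63.7 and 36.6 CPM in DPLBJ (log2 fold change -1.65 ± 0.40 SE, edgeR adjusted p = 0.15), and BMP7 from 12.6, 5.89 and 12.3 CPM to 5.59, 3.04 and 3.48 CPM (log2 fold change -1.34 ± 0.45 SE, edgeR adjusted p = 0.213). TGFB3 was higher in DPs, with 69.5, 9.18 and 48 CPM against 12.8, 15.6 and 16.7 CPM (log2 fold change 1.48 ± 0.63 SE, edgeR adjusted p = 0.28), but DPLBJ replicate 2 lay below every MH library. FSTL4 was 1.64, 0.289 and 0.4 CPM and 2.12, 2.06 and 5.31 CPM (log2 fold change -2.03 ± 0.80 SE, edgeR adjusted p = 0.257).

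Leaving out 1 library at a time, FST, BMPER, CHRDL1, ACVR1C and TGFB2 stayed DEGs in all 6 fits. TGFB3 lost its call without any 1 of 5 libraries (0.92 without DPLBJ replicate 1), FSTL4 without any 1 of 4 (-1.46 without MHLBJ replicate 3) and BMP7 without any 1 of 3 (-1.14 without MHLBJ replicate 1). BMPR1A lost it without MHLBJ replicate 1 (-1.25) or DPLBJ replicate 3, and BMPR2 lost it without DPLBJ replicate 1 (-0.95) or MHLBJ replicate 3. The number of DEGs was 16 without DPLBJ replicate 1 and 6 without DPLBJ replicate 3, MHLBJ replicate 1 or MHLBJ replicate 3. Beside the chondrocyte and adipocyte sums given above, the 4 endothelial markers summed to 548 to 1116 CPM in DPLBJ and 1680 to 1738 CPM in MHLBJ, and the 5 muscle markers to 1.14 to 2.14 CPM and 9.57 to 443 CPM. The neutrophil markers (3 of 5 found) summed to 7.57 to 5469 CPM and 0.303 to 68.4 CPM, and the erythroid markers (5 of 8 found) to 0.164 to 6923 CPM and 0.683 to 8.51 CPM. The part of these cell types in the differences was not tested.

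**Figure D3:**
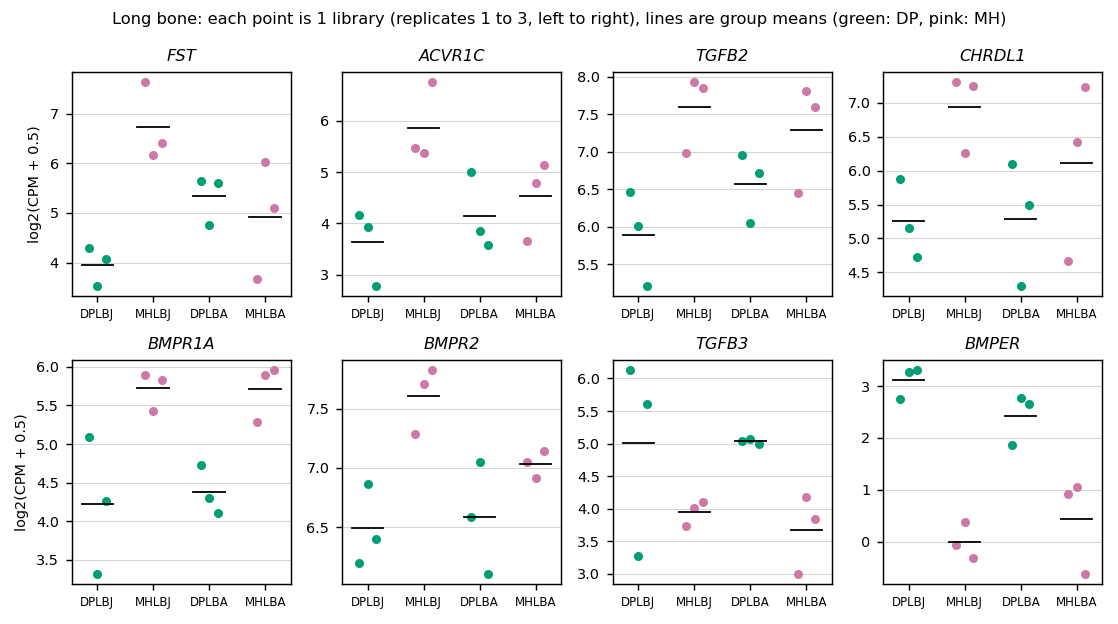
Level on a log2(CPM + 0.5) scale of 8 members in each long bone library by group (DP in green, MH in pink), with the line at the mean of 3 libraries. FST, ACVR1C, TGFB2, CHRDL1, BMPR1A and BMPR2 are lower in every DPLBJ than in every MHLBJ library and BMPER is higher, while TGFB3 of DPLBJ replicate 2 lies below the MHLBJ libraries.

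In the adult long bone 9 of 46 members were higher and 5 lower in DPs, against 10.4% and 7.87% of all genes tested (18.3% in all). The median log2 fold change was 0.08 over the members and -0.02 over all genes. GREM1, a secreted BMP antagonist, was 1.3, 1.17 and 0.906 CPM in DPLBA, while all 3 MHLBA libraries had at most 3 reads, which makes it at least 5.69-fold higher in DPs against the level of 3 reads in a library. BMPER was again higher, at 3.16, 6.3 and 5.77 CPM against 1.38, 1.57 and 0.149 CPM (log2 fold change 2.22 ± 0.77 SE, edgeR adjusted p = 0.139). FSTL1 was 369.5, 206 and 373 CPM in DPLBA and 60.6, 164 and 155 CPM in MHLBA (log2 fold change 1.29 ± 0.42 SE, edgeR adjusted p = 0.127), with no overlap. TGFB3 was 32.4, 33.2 and 31.3 CPM and 7.49, 17.6 and 13.9 CPM, also without overlap (log2 fold change 1.27 ± 0.33 SE, edgeR adjusted p = 0.0828). GDF5 was low in both breeds, at 1.49, 0.915 and 0.849 CPM against 0.43, 0.149 and 0.0745 CPM (log2 fold change 2.28). GDF10 was 26, 6.25 and 57.4 CPM against 1.81, 12.4 and 7.97 CPM (log2 fold change 1.98 ± 0.85 SE, edgeR adjusted p = 0.208). BMP1, a metalloproteinase that processes procollagen and cleaves chordin, was 103, 366 and 263 CPM against 65.9, 119 and 110.1 CPM (log2 fold change 1.27 ± 0.46 SE, edgeR adjusted p = 0.154). The groups overlapped for GDF10 and BMP1. The remaining 2 members higher in DPs were CHRD and LTBP3.

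In the same tissue ACVR2A, a type II receptor of activins, was lower in DPs, with 20.6, 24.9 and 15.9 CPM against 64.5, 50.0 and 48 CPM (log2 fold change -1.47 ± 0.29 SE, edgeR adjusted p = 0.0459). BMPR1A was lower too, with 26.1, 19.2 and 16.7 CPM against 38.5, 59 and 61.7 CPM (log2 fold change -1.41 ± 0.29 SE, edgeR adjusted p = 0.053). ACVR2A was the only member with an adjusted p under 0.05 in this comparison, against 2.25% of all genes tested with that adjusted p and a fold change over 2. INHBB, the activin B subunit, was 2.98, 1.27 and 0.736 CPM against 3.36, 10.3 and 9.91 CPM (log2 fold change -2.28 ± 0.67 SE, edgeR adjusted p = 0.103). GDF3 was 0.124, 0 and 0.34 CPM against 0.861, 2.09 and 1.86 CPM (log2 fold change -3.39). Neither INHBB nor GDF3 overlapped between the breeds. FSTL4 was 0.31, 3 and 0.793 CPM against 65.9, 1.34 and 2.31 CPM (log2 fold change -4.18 ± 1.60 SE, edgeR adjusted p = 0.165), which rested on MHLBA replicate 1, since without it the log2 fold change was -0.42. GDF3, GDF5 and GREM1 passed the low-count filter here only through the breed where they were high, so their calls, which are in the count above, are a description. No SMAD was a DEG in the adult long bone either.

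Of the DEGs described for the adult long bone, TGFB3, INHBB, BMPR1A and ACVR2A stayed so with each library left out in turn. GDF10 lost its call without any 1 of 4 libraries (1.1 without DPLBA replicate 3) and BMP1 without any 1 of 3 (0.85 without DPLBA replicate 2). FSTL1 lost it without any 1 of 3 (0.97 without MHLBA replicate 1) and BMPER without DPLBA replicate 2 (2.04) or DPLBA replicate 3. Libraries did not overlap for 14 of 46 members, against 29.6% of all genes tested, and 9 members were DEGs without DPLBA replicate 3. The osteoblast and osteocyte markers (6 of 7 found) summed to 6342 to 12637 CPM in DPLBA and 1061 to 3372 CPM in MHLBA. Neutrophil markers summed to 780 to 1160 CPM and 0.596 to 51.9 CPM, the 5 B cell markers to 7.3 to 11.8 CPM and 2.46 to 4.56 CPM, and muscle markers to 1.19 to 1.68 CPM and 2.41 to 273 CPM. The part of these cell types in the differences was not tested.

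Of 46 members tested between the breeds in the long bone, 20 were DEGs at either stage, against 24.8% of all genes tested there, and 4 at both, against 6.59%. TGFB3 and BMPER were higher and BMPR1A and FSTL4 lower in DPs at both stages, a number close to that share. With a library left out, TGFB3 and BMPR1A lost the call in juveniles, BMPER in adults and FSTL4 at both stages. The juvenile and adult comparisons share no library, but at each stage the highest chondrocyte sum was that of a DP library. It was 20039 CPM in DPLBJ and 21748 CPM in DPLBA, against at most 12.1 CPM in MHLBJ and 1595 CPM in MHLBA. The part of this in the calls was not tested. FST, ACVR1C, TGFB2 and CHRDL1, lower in DPs at the juvenile stage, had log2 fold changes of 0.15, -0.41, -0.81 and -1.02 at the adult stage, where none was a DEG. In MHLBA the lowest value of each came from replicate 1, the library with 975 CPM of adipocyte markers. TGFB2 was 86.9, 223 and 194 CPM in MHLBA and CHRDL1 24.9, 85.0 and 150 CPM. For these 2 genes every DPLBA library lay below MHLBA replicates 2 and 3, a split made after the values were seen. This was not so for the others. FST was 49.5 CPM in DPLBA replicate 1 and 33.7 CPM in MHLBA replicate 3. ACVR1C was 31.5 CPM in DPLBA replicate 1 and 27.2 CPM in MHLBA replicate 2. The share of all genes split in this way was not counted. The part of MHLBA replicate 1 in the adult values of these genes was not tested.

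**Figure D4:**
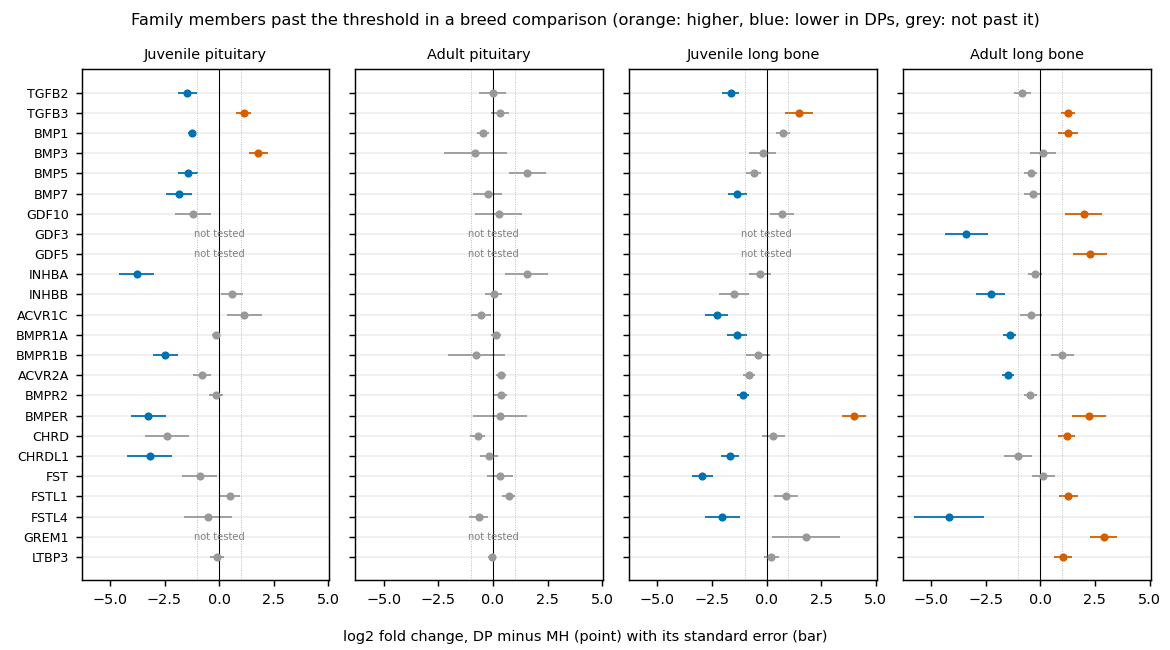
Log2 fold change (DP minus MH) of the 24 members that were DEGs in at least 1 breed comparison, with bars of 1 standard error, in the 4 comparisons of 3 against 3 libraries (orange higher and blue lower in DPs, grey not a DEG). TGFB3 and BMPER are orange and BMPR1A and FSTL4 blue in both long bone panels, and no point of the adult pituitary panel is coloured.

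In the juvenile pituitary the breed comparison set 3 hormone-rich DPPJ against 3 hormone-poor MHPJ libraries, so breed and the piece of tissue cannot be told apart in it. The 5 oligodendrocyte markers summed to 92.5 to 1779 CPM in DPPJ and 3663 to 5745 CPM in MHPJ. In MHPJ replicate 2 MOG had 12 and MOBP 64 reads, against 3167 and 5861 in replicate 1 and 2700 and 3273 in replicate 3. Of 46 members tested 2 were higher and 8 lower in DPs, against 7.6% higher and 12.7% lower among all genes (20.3% in all). The median log2 fold change was -0.33 over the members and -0.07 over all genes. The activin subunit INHBA was 1.03, 1.86 and 0.667 CPM in DPPJ and 30.9, 5.04 and 10.9 CPM in MHPJ (log2 fold change -3.76 ± 0.80 SE, edgeR adjusted p = 0.0407). BMP1 was 23.1, 23.3 and 17.9 CPM and 53.5, 47.3 and 43.9 CPM (log2 fold change -1.23 ± 0.19 SE, edgeR adjusted p = 0.0216). These 2 members had an adjusted p under 0.05, as had 8.73% of all genes tested together with a fold change over 2, and did not overlap between the groups. BMPR1B was 14.4, 53.6 and 16.8 CPM and 189.9, 96.2 and 163 CPM (log2 fold change -2.46 ± 0.59 SE, edgeR adjusted p = 0.0514). BMPER was 0.257, 2.88 and 1.79 CPM and 19.1, 11.3 and 14.5 CPM (log2 fold change -3.24 ± 0.80 SE, edgeR adjusted p = 0.0551). TGFB2 was 8.12, 7.94 and 3.62 CPM and 24.9, 12.4 and 14.8 CPM (log2 fold change -1.46 ± 0.43 SE, edgeR adjusted p = 0.08). BMP5 was 2.41, 2.46 and 1.62 CPM and 3.83, 8.74 and 4.18 CPM (log2 fold change -1.43 ± 0.46 SE, edgeR adjusted p = 0.0973). None of these 4 overlapped between the groups.

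CHRDL1 was 10.3, 17.2 and 4.96 CPM in DPPJ and 34.1, 217 and 25.3 CPM in MHPJ (log2 fold change -3.19 ± 1.02 SE, edgeR adjusted p = 0.0957), with its highest value in replicate 2, the library with muscle markers, without which the log2 fold change was -1.48. BMP7 was 4.37, 8.17 and 2.96 CPM and 23.5, 6.81 and 23.5 CPM (log2 fold change -1.85 ± 0.60 SE, edgeR adjusted p = 0.0989), and its groups overlapped. The 2 members higher in DPs were BMP3 and TGFB3, both without overlap. BMP3 was 6.37, 4.74 and 8.37 CPM against 2.52, 1.01 and 1.9 CPM (log2 fold change 1.78 ± 0.44 SE, edgeR adjusted p = 0.0546), TGFB3 13.9, 9.57 and 9.46 CPM against 4.16, 6.64 and 3.67 CPM (log2 fold change 1.12 ± 0.35 SE, edgeR adjusted p = 0.0941). TGFB3 was a DEG higher and TGFB2 a DEG lower in juvenile DPs in both tissues, which came from the same horses. In the pituitary, however, breed and the piece of tissue cannot be told apart. Among adult pituitaries TGFB3 was lowest in hormone-poor replicate 1 of each breed (8.22, 16.3 and 15.9 CPM in DPPA, 6.4, 14.8 and 11.7 CPM in MHPA). TGFB2 was highest there (27, 8.94 and 22.5 CPM, and 33.4, 17.4 and 8.69 CPM). The share of all genes called alike in both tissues was not counted. In the juvenile comparison the number of DEGs without MHPJ replicate 2 was 17 in place of 10. INHBA, BMP1, BMPR1B, BMPER and BMP3 stayed DEGs with each library left out in turn. BMP7 lost its call without any 1 of 4 libraries (-1.55 without DPPJ replicate 3), BMP5 without any 1 of 3 (-0.91 without MHPJ replicate 2), and CHRDL1 without DPPJ replicate 1 (-3.15) or DPPJ replicate 3 (-2.76). TGFB3 lost it without DPPJ replicate 1 (0.92) or MHPJ replicate 3 (0.95) and TGFB2 without MHPJ replicate 1 (-1.08). Libraries did not overlap for 13 of 46 members, against 40.9% of all genes tested.

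**Figure D5:**
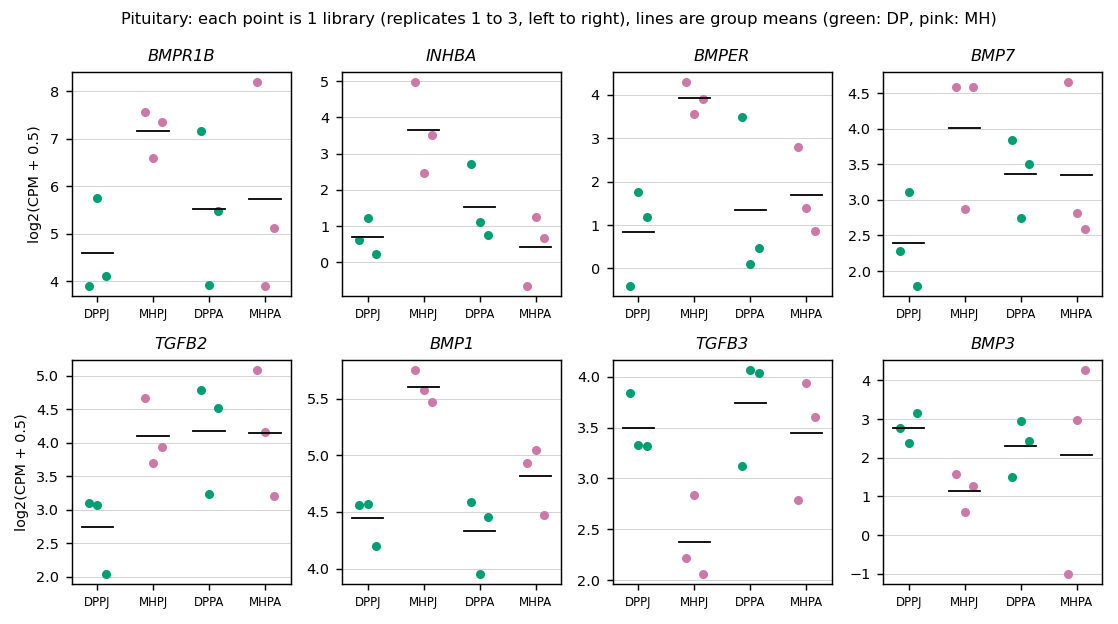
Level on a log2(CPM + 0.5) scale of 8 members in each pituitary library by group (DP in green, MH in pink), with the line at the mean of 3 libraries. BMPR1B is at 96.2 CPM or above in the 3 MHPJ libraries, DPPA replicate 1 and MHPA replicate 1, and at or under 53.6 CPM in the other 7.

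In the adult pituitary, where each breed had 1 hormone-poor library, none of 44 members tested was a DEG by edgeR or by DESeq2, against 2.93% of all genes, and 3 members (ACVR1, SMAD8 and FSTL1) had an unadjusted P under 0.05 with a fold change under 2. In BMPR1B, GDF11 and BMPER, singled out after their values were seen, the hormone-poor library was highest in each breed. BMPR1B was 144, 14.7 and 44.1 CPM in DPPA and 293, 14.4 and 34.5 CPM in MHPA, with replicate 1 the hormone-poor one. GDF11 was 75.1, 13.8 and 28.6 CPM and 142, 7.37 and 4.89 CPM, and BMPER 10.8, 0.57 and 0.895 CPM and 6.46, 2.12 and 1.33 CPM. The pattern was not particular to these genes, as other members such as TGFB2 and BMP7 had it too. INHBA did not have it, with replicate 1 highest in DPPA (6.08, 1.67 and 1.18 CPM) and lowest in MHPA (0.139, 1.9 and 1.09 CPM). Its share over all genes was not counted. The number of DEGs rose to 4 without MHPA replicate 1 (BMP4, BMP5, GDF11 and LTBP2) and to 3 without both hormone-poor libraries (BMP4, GDF11 and LTBP2), and 1 was found without DPPA replicate 2 (BMP5) or MHPA replicate 3 (ACVR1).

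Few members were DEGs between the stages, and edgeR's adjusted p was above 0.05 for each. In the DP long bone 3 of 45 members tested were lower in juveniles and none higher, against 1.56% and 1.58% of all genes (3.14% in all). FST was 19, 11.1 and 16.3 CPM in DPLBJ and 49.5, 26.7 and 48.2 CPM in DPLBA, without overlap (log2 fold change -1.40 ± 0.37 SE, edgeR adjusted p = 0.988). CHRD was 5.59, 3.32 and 2 CPM and 7.69, 12 and 9.34 CPM (log2 fold change -1.38 ± 0.50 SE, edgeR adjusted p = 0.988). GDF10 was 12, 4.84 and 6.62 CPM and 26, 6.25 and 57.4 CPM (log2 fold change -1.90 ± 0.75 SE, edgeR adjusted p = 0.988). Among MH long bones, 2 of 45 members were higher in juveniles, against 0.763% higher and 2.14% lower among all genes (2.91% in all). FST was 198, 71.3 and 84 CPM in MHLBJ and 12.2, 64.4 and 33.7 CPM in MHLBA (log2 fold change 1.70 ± 0.63 SE, edgeR adjusted p = 0.998). ACVR1C was 43.8, 41.1 and 107 CPM and 12.1, 27.2 and 34.7 CPM (log2 fold change 1.36 ± 0.49 SE, edgeR adjusted p = 0.998). FST therefore ran in opposite directions with stage in the breeds, and the test of that difference is given with the interactions. Of these 5 results, FST in the DP long bone alone kept its call with each library left out. GDF10 was at -1.03 without DPLBA replicate 3, CHRD at -1.08 without DPLBJ replicate 3, FST of MHs at 1.06 without MHLBJ replicate 1 and ACVR1C at 0.80 without MHLBJ replicate 3, none of them a DEG then.

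In the DP pituitary 3 of 44 members were lower in juveniles, against 0.943% higher and 2.59% lower among all genes (3.53% in all). TGFB2 was 8.12, 7.94 and 3.62 CPM in DPPJ and 27, 8.94 and 22.5 CPM in DPPA (log2 fold change -1.59 ± 0.50 SE, edgeR adjusted p = 0.424). BMP5 was 2.41, 2.46 and 1.62 CPM and 10.5, 1.49 and 7.82 CPM (log2 fold change -1.63 ± 0.68 SE, edgeR adjusted p = 0.432). FST was 3.54, 4.18 and 3.21 CPM and 4.28, 7.27 and 11.1 CPM (log2 fold change -1.07 ± 0.39 SE, edgeR adjusted p = 0.424). TGFB2 kept its call with each library left out, while BMP5 (-1.13 without DPPA replicate 1) and FST (-0.69 without DPPA replicate 3) each lost it without any 1 of 5 libraries. In the MH pituitary 3 of 46 members were higher and 1 lower in juveniles, against 4.5% and 3.24% of all genes (7.74% in all). All 3 MHPJ libraries and 1 MHPA library are hormone-poor. INHBA was 30.9, 5.04 and 10.9 CPM in MHPJ and 0.139, 1.9 and 1.09 CPM in MHPA (log2 fold change 3.91 ± 1.08 SE, edgeR adjusted p = 0.365). BMPER was 19.1, 11.3 and 14.5 CPM and 6.46, 2.12 and 1.33 CPM (log2 fold change 2.20 ± 0.67 SE, edgeR adjusted p = 0.382). ACVR2A was 21.3, 46.3 and 67.7 CPM and 16.8, 23.5 and 21.8 CPM (log2 fold change 1.16 ± 0.44 SE, edgeR adjusted p = 0.423). TGFB3 was 4.16, 6.64 and 3.67 CPM and 6.4, 14.8 and 11.7 CPM (log2 fold change -1.15 ± 0.45 SE, edgeR adjusted p = 0.423). Groups overlapped for ACVR2A and TGFB3. INHBA kept its call with each library left out. BMPER lost it without MHPA replicate 2 (1.99), ACVR2A without any 1 of 5 libraries (0.75 without MHPJ replicate 3) and TGFB3 without any 1 of 4 (-0.84 without MHPA replicate 2). The number of DEGs was 9 without MHPA replicate 1 and 7 without MHPJ replicate 2.

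Whether the breed difference itself differed between juveniles and adults was tested as an interaction (breed difference of juveniles minus that of adults). In the long bone 2 of 48 members were DEGs by this test, both lower, against 2.54% higher and 1.63% lower among all genes (4.17% in all). FST had log2 fold change -3.10 ± 0.77 SE, edgeR adjusted p = 0.971, and stayed a DEG with each of the 12 libraries left out. ACVR1C had log2 fold change -1.91 ± 0.78 SE, edgeR adjusted p = 0.971, and lost its call without any 1 of 4 libraries (-1.32 without DPLBA replicate 1). In the pituitary 4 of 47 members were DEGs, all lower, against 6.8% higher and 8.87% lower among all genes (15.7% in all). They were INHBA (log2 fold change -5.29 ± 1.38 SE, edgeR adjusted p = 0.154) and BMPER (log2 fold change -3.56 ± 1.60 SE, edgeR adjusted p = 0.244), together with BMP5 (log2 fold change -2.98 ± 0.99 SE, edgeR adjusted p = 0.174) and CHRDL1 (log2 fold change -2.95 ± 1.09 SE, edgeR adjusted p = 0.196). INHBA and BMP5 kept their calls with each library left out. BMPER lost its call without any 1 of 8 libraries, at -1.07 without DPPA replicate 1, and CHRDL1 without MHPJ replicate 2 (-1.33).

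Other genes of the pathway, 45 found of 57 listed, were counted in the same tests. They comprise ligand activators, further extracellular regulators and transcriptional targets. In the juvenile long bone 3 of 36 tested were higher and 6 lower in DPs, against 8.33% and 5.47% of all genes. Among those lower were TLL2, a relative of BMP1 (log2 fold change -1.80 ± 0.47 SE, edgeR adjusted p = 0.153), and SMOC1 (log2 fold change -1.75 ± 0.49 SE, edgeR adjusted p = 0.165). Among those higher were decorin (DCN; log2 fold change 1.67 ± 0.41 SE, edgeR adjusted p = 0.15) and the pseudoreceptor BAMBI (log2 fold change 1.60 ± 0.58 SE, edgeR adjusted p = 0.226). At the adult stage 5 of 36 were higher and 4 lower, against 10.4% and 7.87%. TGFBI (log2 fold change 2.12 ± 0.56 SE, edgeR adjusted p = 0.0836) and BAMBI (log2 fold change 1.76 ± 0.52 SE, edgeR adjusted p = 0.103) were among those higher, as were CTGF (log2 fold change 1.57 ± 0.63 SE, edgeR adjusted p = 0.18) and DCN (log2 fold change 1.45 ± 0.51 SE, edgeR adjusted p = 0.144). BAMBI and DCN were higher in DPs at both stages. Of all genes tested between the breeds in the long bone, 6.59% were DEGs at both stages. TLL2, SMOC1 and DCN in juveniles and TGFBI and BAMBI in adults kept their calls with each library left out. CTGF lost its call in adults without any 1 of 5 libraries (0.90 without DPLBA replicate 3). BAMBI lost its call in juveniles without any 1 of 5 libraries (1.22 without DPLBJ replicate 1). DCN lost its call in adults without DPLBA replicate 2 (0.92).

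In the pituitary 8 of 37 of these genes were lower and none higher in juvenile DPs, against 12.7% and 7.6% of all genes. The largest changes were those of SMOC1 (log2 fold change -3.51 ± 1.08 SE, edgeR adjusted p = 0.0877) and ITGB8 (log2 fold change -2.75 ± 0.64 SE, edgeR adjusted p = 0.049). RGMA, a BMP co-receptor (log2 fold change -2.23 ± 0.63 SE, edgeR adjusted p = 0.0745), FBN1 (log2 fold change -1.59 ± 0.61 SE, edgeR adjusted p = 0.137) and SMOC2 (log2 fold change -1.47 ± 0.37 SE, edgeR adjusted p = 0.058) followed. FBN1 lost its call without any 1 of 4 libraries (-0.61 without MHPJ replicate 2), and SMOC1 without DPPJ replicate 1 (-3.42) or DPPJ replicate 3 (-3.26). In adults 1 of 38, the BMP target ID4, was higher in DPs (log2 fold change 2.51 ± 0.49 SE, edgeR adjusted p = 0.39), against 2.93% of all genes in either direction. With stage, 5 of 38 were lower in juvenile DPs, against 2.59% of all genes. Of these ID4 (log2 fold change -1.98 ± 0.50 SE, edgeR adjusted p = 0.424) and SMOC2 (log2 fold change -1.67 ± 0.32 SE, edgeR adjusted p = 0.424) kept their calls with each library left out. SMOC1 (-1.69 without DPPA replicate 1) and WFIKKN2 (-0.89 without DPPA replicate 2) each lost it without any 1 of 5 libraries, and ITGAV without any 1 of 4 (-0.55 without DPPA replicate 1). Of 37 genes 1, TSKU, was lower in juvenile MHs, against 3.24% of all genes, and lost its call without any 1 of 4 libraries (-0.96 without MHPA replicate 1). RGMA, among 2 of 36 lower in the juvenile than in the adult DP long bone, against 1.56% of all genes, lost the call without any 1 of 4 libraries (-1.45 without DPLBA replicate 3). In the MH long bone stages 0 of 36 were DEGs in edgeR, against 2.91% of all genes, and 0 had an unadjusted P under 0.05. By the interaction test 6 of 38 were lower in the pituitary, against 8.87% of all genes, and 1 of 37, SOSTDC1, was higher in the long bone, against 2.54%. Between the tissues 20 of 39 were higher and 5 lower in the long bone, against 17.4% and 21.5% of all genes, among them the osteocyte BMP and WNT antagonist SOST (log2 fold change 8.16 ± 0.66 SE, edgeR adjusted p = 1.06e-08), which was higher, and WFIKKN2 (log2 fold change -5.04 ± 0.77 SE, edgeR adjusted p = 2.66e-05), which was lower. SMOC2 (log2 fold change 3.78 ± 0.33 SE, edgeR adjusted p = 2.74e-08) and THBS1 (log2 fold change 3.41 ± 0.30 SE, edgeR adjusted p = 2.83e-08) were also higher.

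The 9 members that passed the low-count filter in no comparison included BMP10, BMP15, GDF2, GDF6, GDF7, INHBC, INHBE and FSTL3. Their median was under 1 RPKM in both tissues, and their highest single library held 221 reads, for INHBE in the long bone. Members with at most 3 reads in every library numbered 3 in each tissue.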

How the data were processed

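RNA-seq libraries were directional and depleted of ribosomal RNA. The authors trimmed the reads with Btrim and mapped them to the horse genome EquCab 3.0, and the submitters' processing notes name bcl2fastq, TopHat2 and edgeR. They deposited whole-number read counts per gene (24232 genes, of which 8077 without a symbol) and the RPKM of each library. No gene coordinates or sequences of this build were used here. The RPKM of 6 low members in DPLBA replicate 2 was over 2% away from the value given by their reads.

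Groups came from the sample titles. Counts were scaled with TMM factors over the libraries of each comparison, genes were kept by filterByExpr with a minimum count of 10, and differences were tested with edgeR 4.0.16 (glmQLFit and glmQLFTest) in R 4.3.3, with Benjamini-Hochberg adjustment over all genes tested. Breed and stage comparisons used the 6 libraries of their groups, interactions the 12 of a tissue and the tissue comparison all 24. CPM values use TMM factors over the 24 libraries, and the authors' RPKM was used for levels between genes. Up to 3 reads per library was treated as indistinguishable from 0, which covers counting error only. P-values set a difference against the spread between the 3 libraries of a group, which holds differences between animals and between the pieces taken. The tissue test treated the pituitary and long bone libraries of a horse as independent. An exact permutation test of 3 against 3 cannot go below 0.1. Genes that share reads with close relatives may be miscounted.

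The threshold is that of the study's methods. Named members are those called in a breed, stage or interaction comparison (the 12 largest where more were called), the 5 highest and 5 lowest between the tissues, a fixed set given by level and up to 5 other pathway genes per comparison. Some genes that this rule names or that belong to the lists are not reported here by name. The members, lists and tests were chosen with earlier results of these data known. The procedure was tested on simulated counts with known fold changes and the same dispersion for every gene. That setting does not hold groups of mixed tissue pieces such as those found here. Alternatives were RLE factors, no TMM, no low-count filter, DESeq2 1.42.0, an adjusted p under 0.05, all 12 libraries of a tissue in 1 fit, the replicate number as a block, and each library left out in turn. Same-numbered libraries matched each other best throughout in DPPA and MHPA alone, where their deviations from the group means correlated at 0.638, 0.533 and 0.371 across genes. These groups are different horses, and replicate 1 was the hormone-poor library in both, so this is no pairing of animals. The block changed no count between DPPA and MHPA. No replicates were near identical (r of log2 CPM across genes 0.793 to 0.981).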

Additional observations from a re-analysis of the deposited data

Results flagged for a closer look

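The breed difference differed between juveniles and adults for 6 members by the interaction test (edgeR, breed difference of juveniles minus that of adults on the log2 scale), each at an unadjusted P under 0.05 and none at an adjusted p under 0.05. These were 2 of 48 members in the long bone, against 4.17% of all genes tested, and 4 of 47 in the pituitary, against 15.7%. In the long bone the interaction was -3.10 for FST (adjusted p = 0.971), which was lower in all 3 DP than in all 3 MH juveniles and overlapped in adults, and -1.91 for ACVR1C (adjusted p = 0.971), which lost its call without any 1 of 4 libraries (-1.32 without DPLBA replicate 1). In the pituitary it was -5.29 for INHBA (adjusted p = 0.154), -3.56 for BMPER (adjusted p = 0.244), -2.98 for BMP5 (adjusted p = 0.174) and -2.95 for CHRDL1 (adjusted p = 0.196). BMPER lost its call without any 1 of 8 libraries (-1.07 without DPPA replicate 1) and CHRDL1 without MHPJ replicate 2 (-1.33). The 3 juvenile MH pituitary libraries are hormone-poor, and the part of this in the 4 pituitary results was not tested.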

How the results depend on the processing

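The number of member DEGs stayed within 1.5 times of the value reported except as follows. With an adjusted p under 0.05 in place of the unadjusted P it was 2 in the juvenile pituitary breed comparison, 0 in the juvenile and 1 in the adult long bone breed comparison, and 0 in the 4 stage and both interaction comparisons. Without TMM it was 9 in the adult long bone breed comparison, 1 in the DP pituitary stage (TGFB2), 5 in the DP long bone stage (GDF10, TGFBR3, CHRD, FST and LTBP3) and 4 in the long bone interaction (TGFB1, ACVR1C, BMPR1B and FST). Without the low-count filter it was 7 in the MH pituitary stage and 5 in the MH long bone stage (GDF2, INHBE, ACVR1C, FST and FSTL3), and DESeq2 gave 7 in the MH pituitary stage. With all 12 libraries in 1 fit the adult pituitary breed comparison gave 1 (BMP5), and it gave 3 without DPPA 1 and MHPA 1.

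With each library left out in turn the counts ranged from 7 to 17 in the juvenile and 0 to 4 in the adult pituitary breed comparison, 6 to 16 in the juvenile and 9 to 14 in the adult long bone breed comparison, 1 to 5 in the DP pituitary stage, 1 to 9 in the MH pituitary stage, 1 to 5 in the DP long bone stage, 2 to 3 in the MH long bone stage, 3 to 10 in the pituitary interaction (10 without MHPA replicate 1), 1 to 7 in the long bone interaction (7 without DPLBJ replicate 1) and 33 to 35 between the tissues. The DP pituitary stage gave 5 without DPPJ replicate 2 and 1 without DPPA replicate 3 or DPPJ replicate 3. The DP long bone stage gave 5 without DPLBJ replicate 1 or DPLBJ replicate 2 and 1 without DPLBA replicate 3 or DPLBJ replicate 3.

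Outside the adult pituitary the deviations of same-numbered libraries correlated at -0.464 to 0.261. Under the replicate block the MH long bone stage gave 1 (ACVR1C) and the long bone interaction 1 (FST), with other counts within 1.5 times. Of 95 gene results none changed sign, 54 of 567 values under the other alternatives and 167 of 912 with a library left out were no longer DEGs, and 50 gene results kept the call with every library left out. Leaving out TMM moved the median log2 fold change of all genes by over 0.1 in 9 of the 11 comparisons, for example to -0.24 between the tissues and to -0.17 in the juvenile long bone, so changes near the threshold there are relative to that shift. Members with few reads, such as GDF3, GDF5 and GREM1, are limited by depth.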
